A study of Homo sapiens with 2 samples.

Results

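The genes examined were the cyclins of the G1 phase, the kinases that they activate, the retinoblastoma gene RB1 and the kinase inhibitor gene CDKN1B. They were taken by symbol from the gene table of SF-539 cells, and 10 of its 58735 genes belonged to the set: CCND1, CCND2, CCND3, CDK4, CDK6, CCNE1, CCNE2, CDK2, RB1 and CDKN1B. Of these, 9 reached 1 FPKM in one library or both and held 10 or more fragments over the 2 libraries, and CCND2 had 1 fragment in all. FPKM is the number of sequenced fragments on a gene, scaled to the length of the gene and to the depth of the library.

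D-type cyclins are made in response to growth signals and bind CDK4 or CDK6. The active kinases phosphorylate the retinoblastoma protein, which then releases E2F transcription factors, and E2F factors turn on cyclin E and the genes of DNA replication. Cyclin E with CDK2 carries the phosphorylation further, while p27, the product of CDKN1B, binds and restrains CDK2 complexes. In glioblastoma (GBM) this pathway is a frequent site of genetic change, among others by loss of CDKN2A, whose product p16 blocks CDK4 and CDK6, or by gain of CDK4.

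SF-539 is an established human GBM cell line. RNA was sequenced from SF-539 cells transduced with the lentiviral control vector pGIPZ-CTRL (shControl) and from SF-539 cells transduced with a lentiviral shRNA against FKBP9 (shFKBP9), an ER-resident prolyl isomerase, to see which transcripts differ after FKBP9 depletion. Both were selected with puromycin as stable clones, and grown in medium with 10% FBS at passages 15 to 18. The study used several shRNAs against FKBP9; which of them the sequenced cells carried, and whether they were 1 clone or a pool, is not given in the sources used here. With 1 library per condition, a difference between them has no replicate check, and the condition, the cells selected and the library cannot be told apart. No p-value between conditions is given, and "higher" or "lower" refers to these 2 libraries.

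The libraries held 18116873 (shControl) and 17158514 (shFKBP9) fragments on genes. FKBP9 itself had 49.8 FPKM in the shControl and 4.68 FPKM in the shFKBP9 library, a log2 ratio of -3.38. The tissue label names brain and the cell type label names epithelial glioma cells. Of 5 glial and neural progenitor markers, only NES reached 1 FPKM (2.36 and 2.17), while GFAP, OLIG2, SOX2 and S100B did not. All of 5 epithelial markers stayed under 1 FPKM in both libraries, with a summed level of 0.650 FPKM (shControl) and 1.39 FPKM (shFKBP9), and the latter held 24 fragments of KRT14 against 1. Their part in the differences below was not tested. All 5 mesenchymal markers were abundant in both, with a summed level of 2604 FPKM (shControl) and 2886 FPKM (shFKBP9). The 95% counting interval of the fragment ratio of shFKBP9 over shControl, on the log2 scale, lay above 0 for 4 of them, namely TGFBI (1136 and 1345 FPKM, log2 ratio 0.24), CD44 (48.6 and 55.6, 0.19), VIM (277 and 295, 0.09) and COL1A1 (837 and 884, 0.08), and included 0 for FN1 (305 and 307, 0.01). Over all genes 13.8% had an interval above 0, and among genes with 0.5 to 2 times the fragments 51.6% lay farther from 0 than VIM, 19.3% farther than CD44, 25% of 12 farther than COL1A1 and 0 of 10 farther than TGFBI, which lay beyond their central 95% (-0.04 to 0.13). Their part in the differences was not tested either. Of 4 blood markers none reached 1 FPKM although IGKC, an immunoglobulin gene, had 0 fragments in shControl and 8 in shFKBP9, while PTPRC was at 0 in both. Of 3 neuronal markers SNAP25 alone reached 1 FPKM (4.98 and 5.76).

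In shControl the G1 genes spanned a wide range of levels, with CCND1 and CDK4 at the top and CCNE2 and CCND2 at the bottom. CCND1 (49.99 FPKM) and CDK4 (49.1 FPKM) had overlapping 95% Poisson intervals and could not be ordered. CCND3 (27.3 FPKM) and CDKN1B (25.3 FPKM) overlapped as well. Below them, CDK2 (17.6), CDK6 (13.6), CCNE1 (7.10), RB1 (4.73) and CCNE2 (1.47 FPKM) each lay outside the interval of their neighbours. These intervals cover counting error only.

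In shFKBP9 CCND1 stood alone at the top with 67.7 FPKM (65.9 to 69.5), above CDK4 with 50.5 FPKM (48.7 to 52.5). CDKN1B (25.1) and CCND3 (23.5) overlapped again, and so now did CDK2 (15.3) and CDK6 (14.2). CCNE1 (7.26), RB1 (4.97) and CCNE2 (2.49) kept their places. The plot of levels shows all 10 genes in both libraries.

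**Figure D1:**
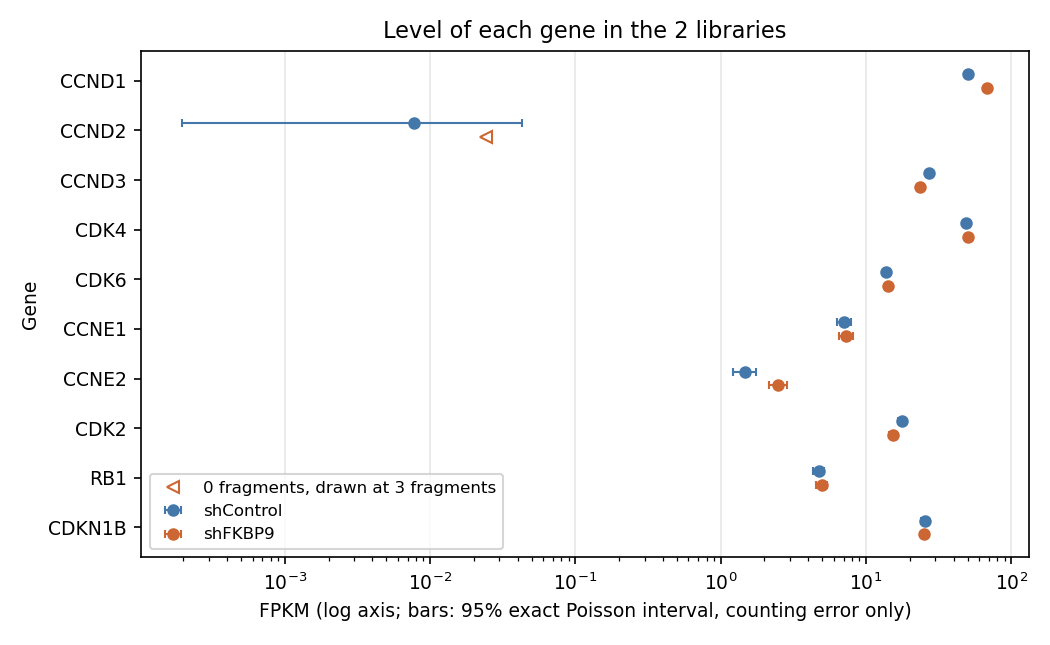
Level of each G1 gene in FPKM (x axis, log scale) in the shControl and the shFKBP9 library, 1 point per library, with 95% exact Poisson intervals that cover counting error only. CCND1 lies at 49.99 and 67.7 FPKM and CCNE2 at 1.47 and 2.49, while CCND2 has 1 fragment in shControl and 0 in shFKBP9, drawn as an open triangle at the level of 3 fragments.

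No gene of the set passed 2-fold in either direction. Among all 12741 genes that reached 1 FPKM in one library or both (expressed genes below), 258 (2.02%) were more than 2-fold higher in shFKBP9 and 279 (2.19%) more than 2-fold lower. Past 1.5-fold, CCNE2 was higher and none was lower, beside 4.25% and 4.43% of these genes. At a lower threshold, a log2 ratio past 0.32, CCND1 and CCNE2 were higher and none was lower, where 9.83% of the 12741 genes were higher and 11.1% were lower. Over the 10 genes the log2 ratio had a median of 0.04, beside -0.02 for all expressed genes, whose quartiles were -0.17 and 0.14. All log2 ratios were computed after adding 0.1 to both FPKM values. With 1 added instead, that of CCNE2 was 0.50, under 1.5-fold.

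Counting intervals of the fragment ratio lay above 0 for CCND1 and CCNE2, below 0 for CCND3 and CDK2, and included 0 for the other 5 genes with at least 10 fragments. Over all 17105 genes with that many fragments, 13.8% had an interval above 0 and 16.9% one below 0. An interval of this kind compares the 2 libraries and leaves out variation between cultures. A second yardstick was the spread of genes with 0.5 to 2 times the fragments of a given gene, here called genes of like depth. It ranks a gene among others in the same 2 libraries and does not measure variation between cultures either. Of the 9 genes, CCND1 and CCNE2 lay outside the central 95% of their genes of like depth and the other 7 lay inside.

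**Figure D2:**
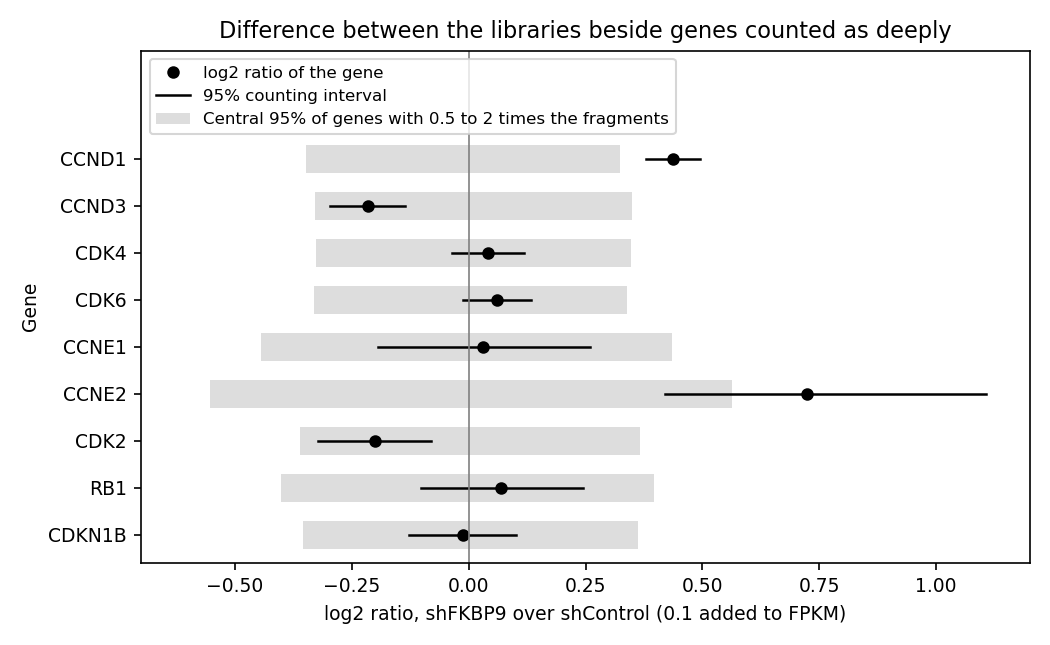
Log2 ratio of shFKBP9 over shControl (x axis, 0.1 added to FPKM) for the 9 G1 genes with at least 10 fragments (y axis). Points are the ratios, lines the 95% counting intervals and grey bars the central 95% of genes with 0.5 to 2 times the fragments; CCND1 (0.44) and CCNE2 (0.72) lie beyond their grey bars.

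CCND1 encodes cyclin D1 and lies at chr11:69641087-69654474 (hg38, plus strand; ENSG00000110092). It had 4372 fragments in shControl (49.99 FPKM, 48.5 to 51.5) and 5614 in shFKBP9 (67.7 FPKM, 65.9 to 69.5). The transcript was 1.35-fold higher in shFKBP9, with a log2 ratio of 0.44 (0.38 to 0.49). Among 1184 genes of like depth the central 95% ran from -0.35 to 0.32, 1.01% had a higher ratio and 2.36% lay farther from 0 in either direction. By position, 10.4% of its exonic bases are shared with LTO1, which runs on the opposite strand and had 846 and 707 fragments, a log2 ratio of -0.18. With the fragments of LTO1 added, the log2 ratio of CCND1 was 0.35. For the protein the paper reports the opposite direction. By immunoblot, cyclin D1 was reduced in SF-539 cells after stable FKBP9 knockdown, and restoring FKBP9 reversed this. The higher CCND1 transcript is therefore not a measure of cyclin D1 protein. Why transcript and protein differed in direction was not tested.

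Other protein-coding genes within 600 kb of CCND1 differed among themselves in direction. MYEOV had 8.93 FPKM in shControl and 11.5 FPKM in shFKBP9, a log2 ratio of 0.36 (0.21 to 0.52). TPCN2, an endolysosomal channel gene, was lower, with 7.29 and 5.87 FPKM and a log2 ratio of -0.31 (-0.43 to -0.19). FADD, an adaptor of death receptors, had 24.5 and 23.3 FPKM, and the interval of its ratio included 0. These were the only such genes, with LTO1, that had 10 or more fragments.

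CCND3 encodes cyclin D3 and lies at chr6:41934933-42050357 (minus strand; ENSG00000112576). It had 2871 fragments in shControl (27.3 FPKM, 26.3 to 28.3) and 2343 in shFKBP9 (23.5 FPKM, 22.6 to 24.5). It was therefore lower where CCND1 was higher, with a log2 ratio of -0.22 (-0.30 to -0.14). This was inside the central 95% of 2498 genes of like depth (-0.33 to 0.35), of which 18.5% lay farther from 0. Pseudogene copies of CCND3 (CCND3P1 and CCND3P2) had 0 fragments in both libraries.

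CCND2, encoding cyclin D2, lies at chr12:4273772-4305350 (plus strand; ENSG00000118971). Only 1 fragment fell on it in shControl and 0 in shFKBP9, where 3 fragments would be 0.0232 and 0.0244 FPKM. Both values are under that floor, so no fold is given. Its antisense gene CCND2-AS1 and its pseudogene CCND2P1 were at 0 fragments in both.

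The D cyclin transcripts of SF-539 cells were thus nearly all CCND1 and CCND3, and their proportions differed between the libraries. CCND1 was 64.6% of the summed D cyclin FPKM in shControl (63.6 to 65.7) and 74.2% in shFKBP9 (73.3 to 75.1), while CCND3 went from 35.3% to 25.8%. The ratio of CCND1 to CCND3 was 1.83 in shControl and 2.88 in shFKBP9, a difference of 0.65 on the log2 scale (exact conditional interval 0.56 to 0.75). Such a ratio within a library does not depend on the scaling between libraries. Summed over the 3 genes, D cyclin transcript was 77.3 FPKM in shControl and 91.2 FPKM in shFKBP9, a log2 ratio of 0.24.

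CDK4, the catalytic partner of D cyclins, lies at chr12:57747727-57756013 (minus strand; ENSG00000135446). It had 2818 fragments in shControl (49.1 FPKM, 47.3 to 51.0) and 2749 in shFKBP9 (50.5 FPKM, 48.7 to 52.5), and the log2 ratio was 0.04 (-0.04 to 0.12). CDK6, its close relative, lies at chr7:92604921-92836594 (minus strand; ENSG00000105810). It had 3029 fragments (13.6 FPKM, 13.2 to 14.1) and 2996 fragments (14.2 FPKM, 13.7 to 14.8), and the log2 ratio was 0.06 (-0.01 to 0.13). With the median ratio of expressed genes set to 1, the CDK6 interval was 0.0043 to 0.15 and no longer included 0.

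Both kinase genes thus differed by little between the libraries. Of the genes of like depth, 79.8% lay farther from 0 than CDK4 and 70.5% farther than CDK6. CDK4 was 78.3% of the summed FPKM of both in shControl and 78.0% in shFKBP9. The ratio of CDK4 to CDK6 was 3.60 and 3.55, a log2 difference of -0.02 (-0.13 to 0.09), so an interval of that width still allows a difference of either sign. The ratio of D cyclin to D cyclin kinase transcript was 1.23 in shControl and 1.41 in shFKBP9.

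CDK4 shares 44.2% of its exonic bases with TSPAN31 on the opposite strand, the largest share of the set. TSPAN31 had 597 fragments in shControl and 502 in shFKBP9, a log2 ratio of -0.17. Whether counting used strand is not given in the sources used here, and without strand the reads of such a pair cannot be told apart. The pseudogene CDK4P1 had 0 fragments in both libraries.

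**Figure D3:**
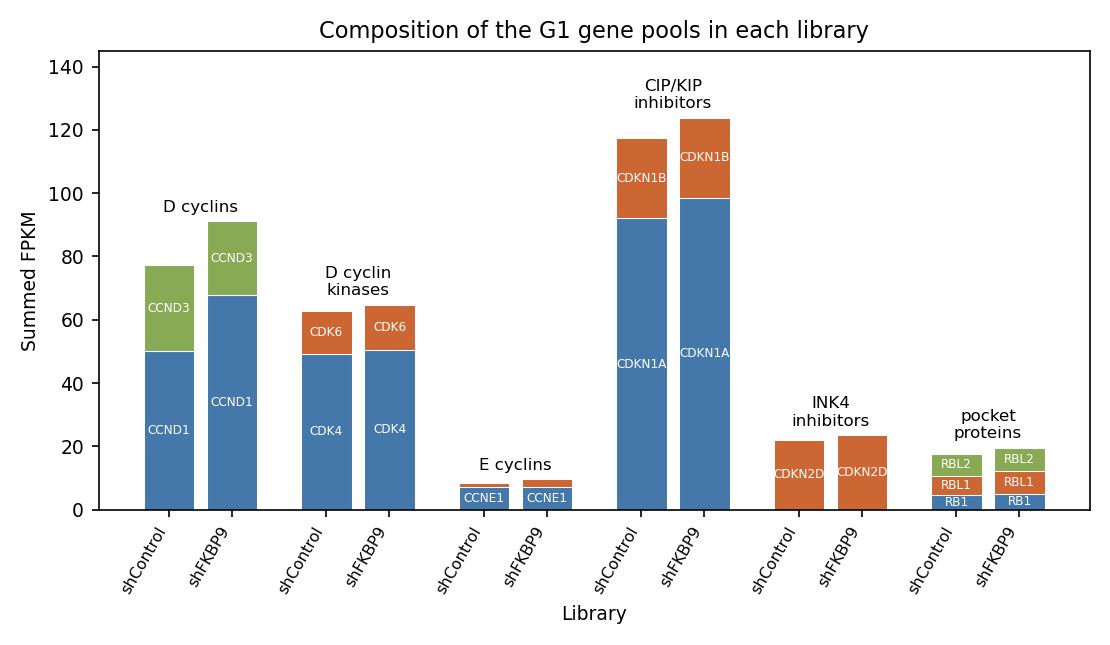
Summed FPKM (y axis, from 0) of 6 groups of G1 genes in each library (x axis), stacked by gene. The D cyclin bar is taller in shFKBP9 (91.2 against 77.3 FPKM) and the CCND1 block takes 74.2% of it against 64.6%, while the kinase bars are 62.8 and 64.8 FPKM; CDKN2D makes up 100% of the INK4 bar in shControl and 99.9% in shFKBP9.

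CCNE1, encoding cyclin E1, lies at chr19:29811898-29824308 (plus strand; ENSG00000105173). It had 328 fragments in shControl (7.10 FPKM, 6.36 to 7.92) and 318 in shFKBP9 (7.26 FPKM, 6.49 to 8.11). The log2 ratio was 0.03 (-0.20 to 0.26), and 88.6% of genes of like depth lay farther from 0. Its exons overlap no other annotated gene.

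CCNE2, encoding cyclin E2, lies at chr8:94879770-94896678 (minus strand; ENSG00000175305) and was the least abundant E cyclin. It had 117 fragments in shControl (1.47 FPKM, 1.22 to 1.76) and 188 in shFKBP9 (2.49 FPKM, 2.15 to 2.87). The transcript was 1.69-fold higher in shFKBP9, the largest ratio of the set, with a log2 ratio of 0.72 (0.42 to 1.11). Among 3028 genes of like depth the central 95% ran from -0.55 to 0.56, and 1.98% lay farther from 0. It shares 37.1% of its exonic bases with genes on the opposite strand, mainly INTS8, an Integrator subunit gene with 443 and 468 fragments and a log2 ratio of 0.15. Summing CCNE2 with all genes that overlap it, NDUFAF6 among them, gave a log2 ratio of 0.18.

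Cyclin E transcript was thus mostly CCNE1 in both libraries, with more CCNE2 in shFKBP9. CCNE2 was 17.1% of the summed E cyclin FPKM in shControl (14.2 to 20.4) and 25.5% in shFKBP9 (22.2 to 29.2). The ratio of CCNE1 to CCNE2 was 4.83 and 2.92, a log2 difference of -0.73 (-1.14 to -0.32). The sum of both was 8.57 and 9.75 FPKM, and D cyclin transcript exceeded it 9.02-fold in shControl and 9.35-fold in shFKBP9.

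CDK2, the kinase of cyclin E, lies at chr12:55966769-55972784 (plus strand; ENSG00000123374). It had 1243 fragments in shControl (17.6 FPKM, 16.7 to 18.6) and 1025 in shFKBP9 (15.3 FPKM, 14.4 to 16.3). Like CCND3 it was lower in shFKBP9, with a log2 ratio of -0.20 (-0.32 to -0.08). This was inside the range of genes of like depth (-0.36 to 0.37), of which 26.7% lay farther from 0. PMEL, which shares exonic bases with it on the opposite strand, had 22 and 4 fragments.

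RB1, the substrate of these kinases and a repressor of E2F factors, lies at chr13:48303726-48599436 (plus strand; ENSG00000139687). It had 552 fragments in shControl (4.73 FPKM, 4.34 to 5.14) and 550 in shFKBP9 (4.97 FPKM, 4.56 to 5.40). The log2 ratio was 0.07 (-0.10 to 0.24), and 72.6% of genes of like depth lay farther from 0. RB1 was 26.6% of the summed FPKM of the 3 pocket protein genes in shControl and 25.3% in shFKBP9, below its relatives RBL1 and RBL2 in each.

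CDKN1B, encoding p27, lies at chr12:12715058-12722371 (plus strand; ENSG00000111276). It had 1290 fragments in shControl (25.3 FPKM, 24.0 to 26.8) and 1212 in shFKBP9 (25.1 FPKM, 23.7 to 26.6), the ratio closest to 1 among the 9 genes. The log2 ratio was -0.01 (-0.13 to 0.10), and 94.4% of genes of like depth lay farther from 0. The ratio of CCND1 to CDKN1B was 1.97 in shControl and 2.70 in shFKBP9.

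**Figure D4:**
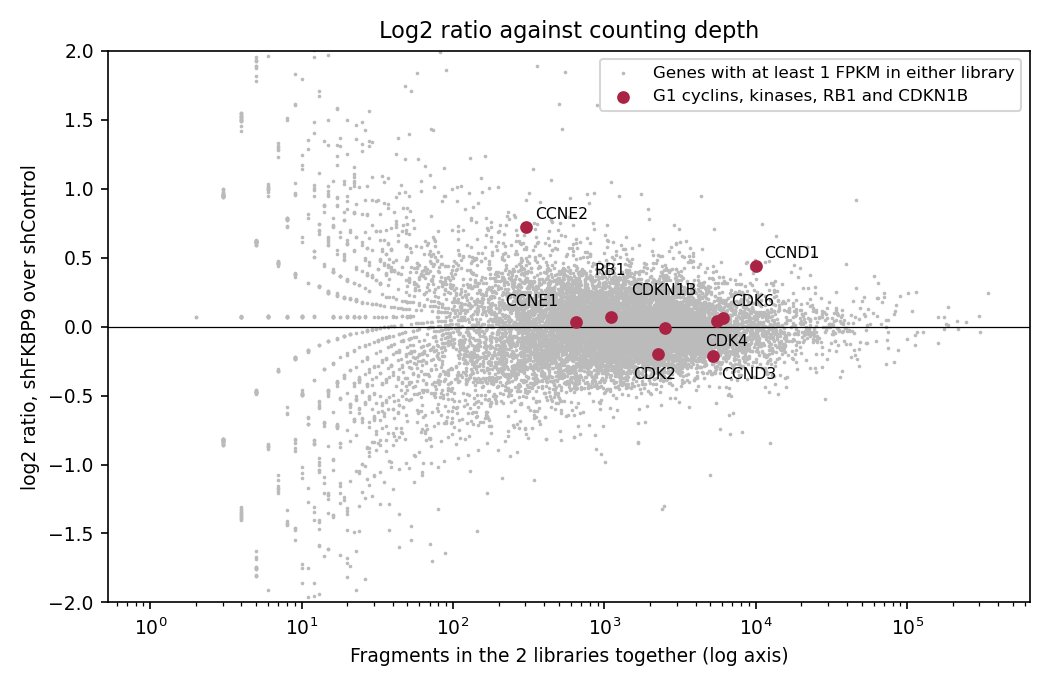
Log2 ratio of shFKBP9 over shControl (y axis) against the fragments in both libraries together (x axis, log scale) for expressed genes, those that reach 1 FPKM in one library or both (grey, 12483 within the axis and 258 beyond it) and for the 9 G1 genes with at least 10 fragments (red). CCND1 and CCNE2 lie at the upper edge of the grey cloud at their depth and the other 7 lie within it.

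Promoter sequence of 6 of the 10 genes was in the RefSeq table (GRCh38.p14), for 5 of them at the canonical start, and CCND1, CCND2, CCNE2 and CDK2 were not among them. Shown are the 250 bases before the start of CDK4, the most abundant kinase gene, of CCND3, the D cyclin that was lower in shFKBP9, and of CCNE1, the major E cyclin. Capitals mark E-boxes (CACGTG, a site that MYC and related factors bind) in CDK4 and GC boxes (GGGCGG or its reverse complement, bound by SP1) in the others.
CDK4, chr12:57752311-57752560, minus strand: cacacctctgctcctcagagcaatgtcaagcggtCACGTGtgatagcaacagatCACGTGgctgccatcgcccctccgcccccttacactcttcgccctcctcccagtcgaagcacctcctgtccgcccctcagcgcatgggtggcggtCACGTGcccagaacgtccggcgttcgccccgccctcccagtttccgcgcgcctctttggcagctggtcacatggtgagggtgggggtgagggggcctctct
CCND3, chr6:41941809-41942058, minus strand: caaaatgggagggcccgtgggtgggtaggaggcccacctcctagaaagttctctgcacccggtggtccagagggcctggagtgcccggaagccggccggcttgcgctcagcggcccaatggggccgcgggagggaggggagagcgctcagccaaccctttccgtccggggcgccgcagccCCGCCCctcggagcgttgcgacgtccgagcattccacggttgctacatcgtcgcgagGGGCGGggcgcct
CCNE1, chr19:29811741-29811990, plus strand: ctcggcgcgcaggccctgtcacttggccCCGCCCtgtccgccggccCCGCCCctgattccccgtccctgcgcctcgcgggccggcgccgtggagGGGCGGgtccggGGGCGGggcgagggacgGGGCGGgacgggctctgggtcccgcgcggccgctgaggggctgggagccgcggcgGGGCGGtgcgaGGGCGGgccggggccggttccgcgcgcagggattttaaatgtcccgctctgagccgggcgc
The CDK4 window holds 3 E-boxes. At least 1 was found in 6.34% of 35116 RefSeq promoter windows of this length and 3 or more in 0.0797%. CCND3 holds 2 GC boxes and CCNE1 holds 7, and the CDK4 window also holds 3 that are not capitalised, where 42.6% of windows hold at least 1, 13.9% hold 3 or more and 1.12% hold 7 or more. The windows at the canonical start of CDK6 and CDKN1B, not shown, hold 3 and 1. CCND3 also has windows 106880 and 2603 bases from its canonical start, which hold 5 and 0. CDK6 has one 2614 bases away that holds 0. Both strands were searched. The E2F sites TTTCCCGC, TTTCGCGC, TTTGCCGC and TTTGGCGC (2.79% of windows hold any), the AP-1 site TGACTCA (4.20%) and the CRE TGACGTCA (1.65%) were not found in the windows of the 6 genes. The only RB1 window lies 172699 bases from the canonical start of that gene, so the bases before that start were not searched. These matches describe the letters only.

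The inhibitors beside p27 were dominated by CDKN1A and CDKN2D. CDKN1A, encoding p21, had 92.1 FPKM in shControl and 98.6 FPKM in shFKBP9, a log2 ratio of 0.10 (0.04 to 0.15). It was 78.3% and 79.6% of the summed CIP/KIP transcript, and the ratio of CDKN1A to CDKN1B was 3.63 and 3.93. CDKN2D, encoding the INK4 protein p19, had 22.1 and 23.5 FPKM, a log2 ratio of 0.09 (-0.08 to 0.25).

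The other INK4 genes were at or near 0 in both libraries. CDKN2B and CDKN2C had 0 fragments in each, and CDKN2A, encoding p16 and ARF, had 0 in shControl and 1 in shFKBP9. CDKN1C, encoding p57, had 9 and 7 fragments. Of the 6 further inhibitor genes only CDKN1A and CDKN2D thus reached 1 FPKM.

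Of the 12 further pocket protein, E2F and DP genes 10 had at least 1 FPKM, with a median log2 ratio of -0.01. The interval lay above 0 for 1, below 0 for 2 and included 0 for 8 of the 11 genes with at least 10 fragments, shares near the 13.8% above and 16.9% below over all genes. The most abundant was TFDP1, a dimer partner of E2F, with 60.5 and 56.0 FPKM (log2 ratio -0.11). RBL1, encoding the pocket protein p107, had the highest ratio with 5.96 and 7.13 FPKM (0.26, interval 0.11 to 0.42). E2F2, an activating E2F, had the lowest with 5.75 and 4.54 FPKM (-0.34, interval -0.53 to -0.16). E2F1, the most abundant activating E2F, was 42.6 and 42.4 FPKM.

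All 19 genes that E2F factors are known to turn on at G1/S had at least 1 FPKM, and their median log2 ratio was 0.00. Intervals lay above 0 for 3, below 0 for 7 and included 0 for 9, where 13.8% of all genes lay above and 16.9% below. Those shares include genes with as few as 10 fragments, while these 19 had 920 or more, and deeper counts narrow the interval. RRM2 alone passed a log2 ratio of 0.32, as 9.83% of expressed genes did, and none passed it downward (11.1%). TK1, thymidine kinase, was the most abundant with 134 and 140 FPKM (log2 ratio 0.06). RRM2, a subunit of ribonucleotide reductase, was highest in ratio with 26.6 and 34.2 FPKM (0.36, interval 0.29 to 0.44). MYBL2, a cell cycle transcription factor, was lowest with 93.9 and 78.7 FPKM (-0.25, interval -0.32 to -0.19). The mitotic kinase gene CDK1 was among the 3 higher ones with 24.2 and 29.8 FPKM (0.30), whereas MCM2, MCM3, MCM4, MCM5 and MCM7 of the replicative helicase were among the 7 lower ones, with log2 ratios from -0.17 to -0.12. MCM6, the sixth subunit of that helicase, had a log2 ratio of 0.01 (-0.05 to 0.08).

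For the 10 genes of G1 cyclin and p27 turnover the median log2 ratio was 0.07, with intervals above 0 for 4, below 0 for 1 and including 0 for 5, beside 13.8% above and 16.9% below over all genes. CKS1B, the cofactor of SKP2 in p27 degradation, was the most abundant by FPKM with 40.7 and 45.0 (log2 ratio 0.15). CUL3, a cullin scaffold, was highest in ratio (0.16) and AMBRA1, the substrate receptor for D cyclins, lowest with 5.87 and 5.11 FPKM (-0.20, interval -0.35 to -0.05). Of genes of like depth, 37.8% (CUL3) to 53.7% lay farther from 0 than the 4 higher ones, and 30.0% farther than AMBRA1. Of the 5 genes of the CDK-activating kinase and the CDK4 chaperone, HSP90AB1 had 751 and 674 FPKM (-0.16), and CCNH, the cyclin of the activating kinase, had the highest ratio (0.27). Their median was 0.06, with 1 interval above 0, 1 below and 3 including 0 (all genes 13.8% above, 16.9% below). Of genes of like depth, 18.6% lay farther from 0 than CCNH and 35.7% of 70 farther than HSP90AB1.

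The 9 mitotic genes had a median log2 ratio of -0.01, with 2 intervals above 0, 2 below and 5 including 0, against 13.8% above and 16.9% below over all genes. CDC20, an activator of the anaphase-promoting complex, had the most FPKM and the lowest ratio, with 119 and 105 FPKM (-0.18). TOP2A, a topoisomerase, had the highest with 55.5 and 64.7 FPKM (0.22). Of genes of like depth, 17.2% (TOP2A) to 40.9% lay farther from 0 than the mitotic genes whose interval left out 0. The proliferation marker MKI67 was 34.3 and 34.0 FPKM.

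Among 12 transcription factors known to act on CCND1, the median log2 ratio was 0.01, with 3 intervals above 0, 5 below and 4 including 0 (13.8% above and 16.9% below over all genes). JUN, an AP-1 subunit, was the most abundant in shControl, with 133 and 138 FPKM (0.05, interval 0.01 to 0.09). FOSL1, another AP-1 subunit, was the most abundant in shFKBP9 and had the highest ratio, 0.18 (0.12 to 0.24), with 125 and 141 FPKM. EGR1, an immediate early factor, had the lowest, -0.40 (-0.58 to -0.23), with 11.8 and 8.95 FPKM. MYC was 17.8 and 18.1 FPKM, a log2 ratio of 0.02. None of the 73 genes in these 7 lists passed 2-fold with at least 1 FPKM, where 2.02% of all such genes were higher and 2.19% lower.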

How the data were processed

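RNA was extracted with TRIzol and libraries were made with the NEBNext Ultra kit. The authors removed reads with adapters, undetermined bases or low quality, aligned with HISAT2 (version 2.0.5) to hg38, counted with featureCounts (1.5.0-p3), and deposited FPKM values per gene. Tool names and build were also read from the submitters' processing notes, which list edgeR. The annotation release and the strand setting are not given in the sources used here. The table held 0 further columns of values per library.

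FPKM times gene length gave whole multiples of 1 step per library for 100% of values (tolerance 0.01), and these multiples were taken as fragments. Each fragment on 1 kb was 0.0552 FPKM in shControl and 0.0582 in shFKBP9. Log2 ratios used FPKM with 0.1 added. The intervals at 95% were exact Clopper-Pearson intervals of the fragment ratio without the addition, exact Poisson intervals of levels, exact binomial intervals of shares and exact conditional intervals of odds ratios. All cover counting error only. With 1 library per condition no test of the condition was possible, and the binomial test named below compares the fragments of the 2 libraries only. Genes of like depth had 0.5 to 2 times the fragments of a gene. Exon overlap was taken from GENCODE release 44, promoters from RefSeq.

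The genes and lists were chosen with earlier results of these data known. Named genes were FKBP9, the 10 genes, those that overlap or copy them, the markers, and of each list the gene with most FPKM, those with the highest and the lowest ratio among genes with at least 1 FPKM, and those at 0 fragments in both libraries. E2F1, CDK1, MKI67, MYC, RBL2, 6 MCM genes, CDKN2A, CDKN1C and the neighbours of CCND1, CDKN2A and CDKN2C fall outside this rule and were named after their values were seen. Alternatives were an addition of 0.01 or 1, scaling by the median ratio, TPM, other fold thresholds, no minimum, summed overlapping genes and copies, an exact binomial test with Benjamini-Hochberg adjustment, assumed dispersions of 0.01 and 0.04, and shares without division by length. The recovery of fragments, the intervals and the fold counts were tested on simulated data. Calculations were run in Python (3.11.15) with scipy (1.17.1), pandas (2.3.3) and numpy (2.4.6), and plots were drawn with matplotlib (3.10.9).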

Additional observations from a re-analysis of the deposited data

How the results depend on the processing

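The log2 ratio of CCND1 stayed between 0.42 and 0.45 under another addition to FPKM, TPM and median scaling, and was 0.35 with LTO1 summed in. For the other 9 genes these first 4 alternatives moved no value past its counting interval, and summing overlapping genes moved 1, CCNE2, from 0.72 to 0.18. No gene passed 2-fold with no minimum, with another addition or with another scaling. At the main setting 1 was higher at 1.5-fold (4.25% of expressed genes) and 2 past a log2 ratio of 0.32 (9.83%). CCNE2 fell under 1.5-fold with 1 added to FPKM (0.50) and under 0.32 with overlapping genes summed (0.18). Counting intervals above 0 were 2 with an assumed dispersion of 0.01 (CCND1 and CCNE2), 0 with 0.04 and 3 with median scaling, CDK6 being the third. Those below 0 were 0 with either dispersion, against 2 by counting error alone. The sign of CDKN1B turned under median scaling and that of CDK4 with its overlapping genes TSPAN31 and MARCH9 summed in, both main values with intervals that include 0. Without division by gene length CCND1 was 60.4% of D cyclin fragments in shControl and 70.6% in shFKBP9. Median scaling moved the ratios of the 9 genes other than CCND2 by 0.02. Depth limits CCND2, under 3 fragments in each library, and CCNE2, whose interval is the widest of the 9 genes. No paired analysis was possible because there is 1 library per condition.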

Other observations

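The INK4 genes without fragments lie among neighbours without fragments. On chromosome 9, 25 protein-coding genes in a row around CDKN2A and CDKN2B, from MLLT3 to DMRTA1 (20341665 to 22455740, hg38), had 3 or fewer fragments each and together 0 in shControl and 1 in shFKBP9, the fragment on CDKN2A. Among them were MTAP, a methionine salvage enzyme, FOCAD, KLHL9 and HACD4, each at 0 in both libraries, besides the type I interferon genes. The next protein-coding genes outward were SLC24A2, with 104 and 107 fragments, and ELAVL2, with 42 and 76. On chromosome 1, 7 protein-coding genes in a row around CDKN2C, from AGBL4 to C1orf185 (48532855 to 51148086), held together 1 fragment in shControl and 2 in shFKBP9. FAF1, the gene next to CDKN2C, was at 0 in both, whereas RNF11, the first gene beyond the run, had 1323 and 1291 fragments and SPATA6 on the other side had 123 and 101. Both runs were looked at after the values of the INK4 genes were seen, and DNA copy number was not measured in these files.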
